A study of Homo sapiens with 16 samples.

Results

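The regions described here are transcription start site (TSS) windows that lie close to the ends of the human autosomes. Each window spans 2000 bp, 1 kb to either side of an annotated start. A window was taken if its end lay within 2 Mb of the last window of its chromosome, or if it began under 2 Mb from the first base. The short arms of chromosomes 13, 14, 15, 21 and 22 were not used, because they carry repeated ribosomal DNA and few mapped genes. This gave 13394 terminal windows of 210609 distinct autosomal windows (6.36%), from 39 chromosome ends. Of them, 5519 lay at 17 short-arm ends and 7875 at 22 long-arm ends, and they carried 3323 gene symbols or identifiers. The chromosome ends differed widely in content, from 54 windows at 3p to 859 at 17q, with a median of 278. The last window inside the zone lay 1999573 bp from its end and the first outside it 2000012 bp. Many windows overlapped, since starts cluster, and only 5144 remained when overlapping windows were thinned to separate ones.

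Subtelomeres are the stretches between the telomere repeat and the unique part of a chromosome. In human cells many ends are rich in genes and CpG islands, while others carry duplicated blocks, olfactory receptor genes or arrays such as D4Z4 at 4q. H3K9me2, dimethylation of lysine 9 on histone H3, is laid down mainly by the methyltransferases EHMT1 and EHMT2. The mark covers broad, silent parts of chromosomes and is low at active CpG island promoters. LEO1 is a subunit of the PAF1 complex, which travels with RNA polymerase II.

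The cells were BJ-5ta, human foreskin fibroblasts made immortal with a telomerase (hTERT) transgene, which every group carried. Wild-type cells were set against a ΔLEO1 clone made by CRISPR/Cas9, each grown in 10% serum or held in 0.1% serum for 10 days to bring about quiescence. Chromatin was precipitated with an antibody that the sample names give only as H3 and that the study's methods give as H3K9me2, and sonicated input DNA was sequenced beside it. Each of the 8 groups had 2 libraries, A and B. Because ΔLEO1 was 1 clone, an effect of the deletion and a difference between clones cannot be told apart, and read counts of DNA do not measure LEO1 itself. No source used here ties the letters to separate cultures, so p-values measure the spread between these libraries, which may be technical.

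One ChIP library, ΔLEO1 10% serum A, held 50 reads over all distinct windows and 0 over the terminal ones and was left out, which left ΔLEO1 in 10% serum with 1 usable ChIP library. The other 7 ChIP libraries held 86252 to 139187 reads on terminal windows, with a median of 5 to 8 reads a window, and the 8 inputs held 141194 to 468252. In none of these 15 libraries was there a read over 1172 terminal windows (8.75%), against 5428 (2.75%) of the other autosomal windows. At 4q, which holds the D4Z4 array, such windows made up 60.3% of all. Reads that fit several copies of such sequence cannot be assigned to 1 place, so values of multicopy genes such as DUX4 are uncertain.

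Promoters at chromosome ends are mostly CpG-rich, and 6 are shown because their windows marked the extremes of the ChIP signal or of its change. The sequences are RefSeq promoters of assembly GRCh38.p14, 250 bases before to 50 after the gene start, in the direction of the gene, with each CpG in capitals. FAM110C (chr2:46456-46755, minus strand) and ADCYAP1 (chr18:904621-904920, plus strand) had windows far above input. CACNA1B (chr9:137877532-137877831, plus strand) was above input and lower in the ChIP of 0.1% serum, and LINC01115 (chr2:868377-868676, minus strand) was lower in ΔLEO1. ACTG1 (chr17:81512750-81513049, minus strand) and TUBB4B (chr9:137241037-137241336, plus strand) had windows that were nearly empty in ChIP.
FAM110C: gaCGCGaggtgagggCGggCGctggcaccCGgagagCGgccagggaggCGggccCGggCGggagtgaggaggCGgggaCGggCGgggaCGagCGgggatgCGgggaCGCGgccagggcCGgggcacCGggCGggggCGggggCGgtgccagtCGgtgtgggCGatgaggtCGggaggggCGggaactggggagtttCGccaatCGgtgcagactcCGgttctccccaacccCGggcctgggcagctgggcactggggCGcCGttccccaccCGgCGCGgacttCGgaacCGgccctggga
ADCYAP1: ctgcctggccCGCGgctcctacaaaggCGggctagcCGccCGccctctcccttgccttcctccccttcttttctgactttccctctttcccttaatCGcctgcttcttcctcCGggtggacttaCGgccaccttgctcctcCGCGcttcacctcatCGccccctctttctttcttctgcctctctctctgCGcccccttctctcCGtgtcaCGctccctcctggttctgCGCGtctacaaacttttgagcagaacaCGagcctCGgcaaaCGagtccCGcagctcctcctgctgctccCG
CACNA1B: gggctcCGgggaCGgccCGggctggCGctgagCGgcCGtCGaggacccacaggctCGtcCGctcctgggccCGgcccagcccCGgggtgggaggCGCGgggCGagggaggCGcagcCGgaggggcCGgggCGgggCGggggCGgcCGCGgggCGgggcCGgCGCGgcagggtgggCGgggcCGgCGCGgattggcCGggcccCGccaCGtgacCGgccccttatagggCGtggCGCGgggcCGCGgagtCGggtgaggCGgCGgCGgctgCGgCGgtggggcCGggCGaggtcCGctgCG
LINC01115: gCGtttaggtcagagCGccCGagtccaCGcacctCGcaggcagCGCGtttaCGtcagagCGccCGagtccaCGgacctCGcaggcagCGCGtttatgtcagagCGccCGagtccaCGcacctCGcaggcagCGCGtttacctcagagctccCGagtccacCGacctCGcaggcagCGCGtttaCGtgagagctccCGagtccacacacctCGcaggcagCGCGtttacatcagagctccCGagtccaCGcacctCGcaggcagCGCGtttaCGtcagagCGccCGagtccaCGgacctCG
ACTG1: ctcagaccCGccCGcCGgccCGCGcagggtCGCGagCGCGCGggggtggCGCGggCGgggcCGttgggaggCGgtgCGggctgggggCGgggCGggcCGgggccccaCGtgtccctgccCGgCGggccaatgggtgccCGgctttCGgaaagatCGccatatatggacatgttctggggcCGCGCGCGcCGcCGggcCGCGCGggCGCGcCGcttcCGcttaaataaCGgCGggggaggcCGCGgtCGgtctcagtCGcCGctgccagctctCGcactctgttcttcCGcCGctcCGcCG
TUBB4B: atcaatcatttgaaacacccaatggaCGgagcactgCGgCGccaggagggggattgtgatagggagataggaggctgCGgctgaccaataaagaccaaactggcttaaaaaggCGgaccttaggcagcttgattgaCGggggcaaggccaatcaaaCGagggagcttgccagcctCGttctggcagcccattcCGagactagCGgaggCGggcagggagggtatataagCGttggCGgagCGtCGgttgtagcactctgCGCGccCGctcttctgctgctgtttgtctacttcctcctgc

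CpG number alone did not order these promoters. FAM110C has 37 CpG in 300 bases and CACNA1B 49, against 50 for ACTG1 and 18 for TUBB4B. Of the RefSeq promoters, 1525 began within 100 bp of the centre of a terminal window and 23935 within 100 bp of another autosomal one. Terminal promoters held a median of 28 CpG, the others 19. Among terminal promoters, the 301 whose window was above input in ChIP held a median of 16 CpG and the 741 whose window was below input held 35. The same order was seen elsewhere, with medians of 5 for 6870 promoters above input and 26 for 10775 below it. The telomere repeat unit TTAGGG, searched on both strands (CCCTAA), occurred in 96 terminal promoters (6.30%) and in 2176 others (9.09%). A tandem of 2 units was found in 0 terminal promoters. These are counts of letters in these windows and do not show binding of any factor.

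The first comparison asked whether terminal windows carry more or less of the precipitated chromatin than the rest of the genome. They carried less. The relative density, the mean reads per terminal window divided by the mean per other autosomal window of the same library, needs no scaling between libraries. In ChIP it was 0.747 and 0.725 in wild-type 10% serum, 0.718 in the usable ΔLEO1 10% serum library, 0.715 and 0.690 in wild-type 0.1% serum, and 0.669 and 0.639 in ΔLEO1 0.1% serum. Input gave 0.896 and 0.956 in wild-type 10% serum, 0.812 and 0.899 in ΔLEO1 10% serum, 0.812 and 0.829 in wild-type 0.1% serum, and 0.854 and 0.886 in ΔLEO1 0.1% serum. All 7 ChIP libraries lay below all 8 inputs. The mean log2 difference was -0.31, a ratio of 0.807 (exact permutation test over 7 and 8 libraries, two-sided p = 0.000311, the smallest it can give, and 0.00155 after Benjamini-Hochberg adjustment over 5 comparisons of relative density). Terminal windows are also more crowded, with a median of 121 windows within 250 kb against 62 elsewhere. When the other autosomal windows were weighted to the same crowding, the difference shrank to -0.027 (exact permutation p = 0.467).

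**Figure D1:**
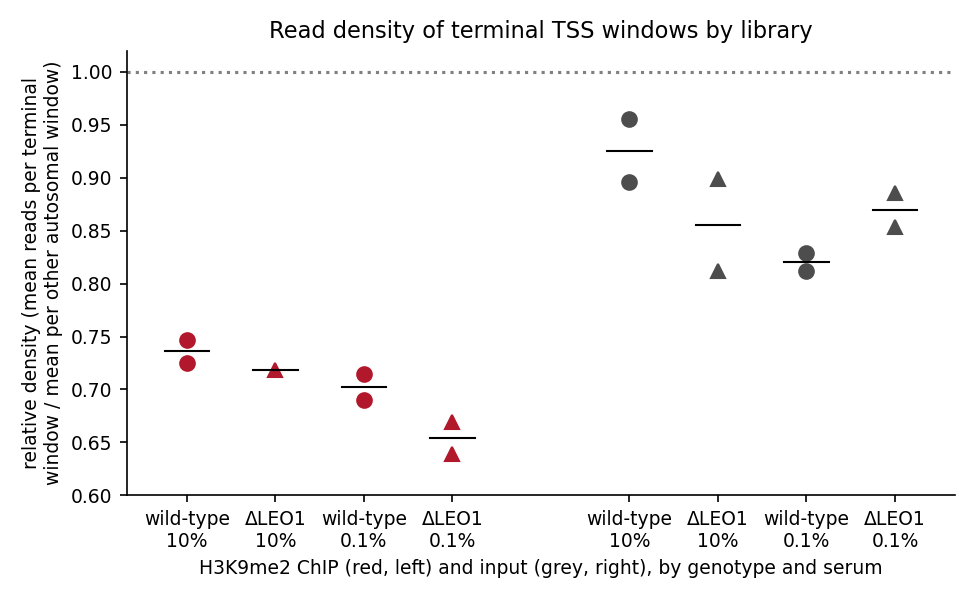
Relative density of terminal windows (vertical axis, ratio without unit) in each library, with H3K9me2 ChIP in red on the left and input in grey on the right, wild-type as circles, ΔLEO1 as triangles, and a bar at each group mean. The 7 ChIP libraries lie between 0.639 and 0.747 and the 8 inputs between 0.812 and 0.956, all below the dotted line at 1.

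The deficit was not even along the zone. The ratio of ChIP to input in relative density was 0.888 in the outermost 0.25 Mb and 0.877 from 0.25 to 0.5 Mb. It reached its lowest value, 0.749, between 1 and 1.5 Mb, after 0.798 between 0.5 and 1 Mb, and stood at 0.774 from 1.5 to 2 Mb. Beyond the zone it returned to 0.979 at 2 to 5 Mb and to 1.03 at 5 to 10 Mb. In each of the 5 terminal steps every one of the 7 ChIP and input pairs was below 0 on the log2 scale, while at 2 to 5 Mb the pairs ran from -0.13 to 0.054. Crowding was also highest between 1 and 1.5 Mb, at a median of 142.5 windows, and lowest of the terminal steps, 78, in the outermost 0.25 Mb. Its part in the profile was not tested.

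**Figure D2:**
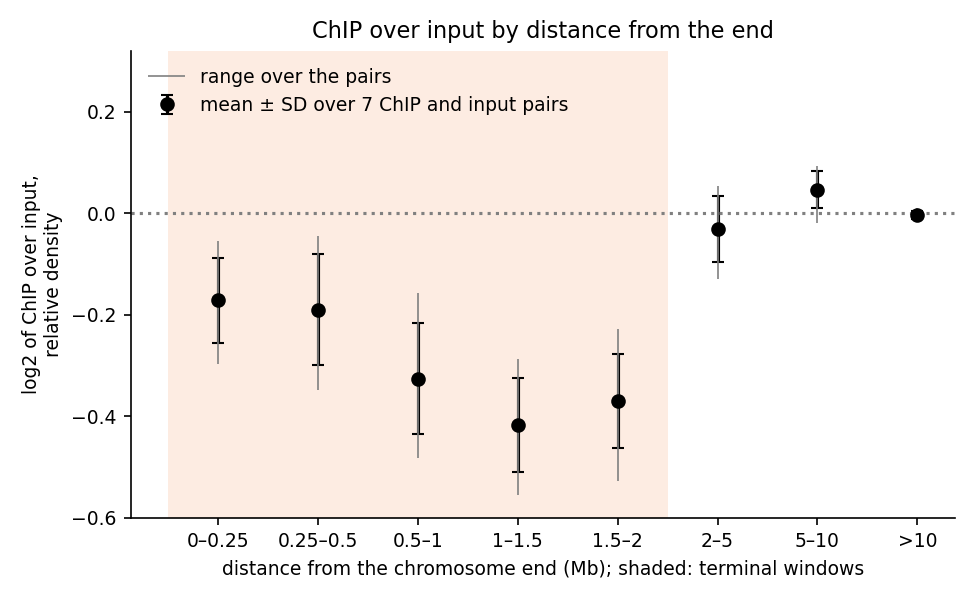
Log2 of ChIP over input in relative density (vertical axis) by distance from the chromosome end in Mb (horizontal axis, unequal steps), as mean ± SD and range over 7 ChIP and input pairs, with the terminal zone shaded. All 5 terminal steps are below 0, the lowest being 1 to 1.5 Mb, and the steps from 2 Mb inward sit near 0.

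Single ends ran in both directions. Over the 39 ends, 16 had a mean ChIP to input ratio above 1 and 23 below, with a median of 0.896. In all 7 pairs 12 ends were above input and 19 below. The highest ratios were at 3p (2.41), 4q (2.19) and 7q (1.54), and the lowest at 11p (0.519), 17q (0.551) and 8q (0.554). At 3p, the end with the fewest windows and the site of the neural adhesion gene CHL1, the relative density in ChIP ran from 1.57 to 2.42 and in input from 0.746 to 0.887. The 4q end was thinly covered in both, at 0.322 to 0.506 in ChIP and 0.164 to 0.235 in input. At 11p, with its IFITM and mucin genes, ChIP gave 0.344 to 0.423 and input 0.632 to 0.810. The 17q values were 0.508 to 0.623 in ChIP and 0.904 to 1.145 in input. Each of the 4 ends had ChIP and input ranges that did not overlap. The ratio was lower where an end held more windows. Over the 39 ends, which share the same libraries, Pearson's r between the log2 number of windows and log2 ChIP over input was -0.85 and Spearman's rho -0.85, given as a description.

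**Figure D3:**
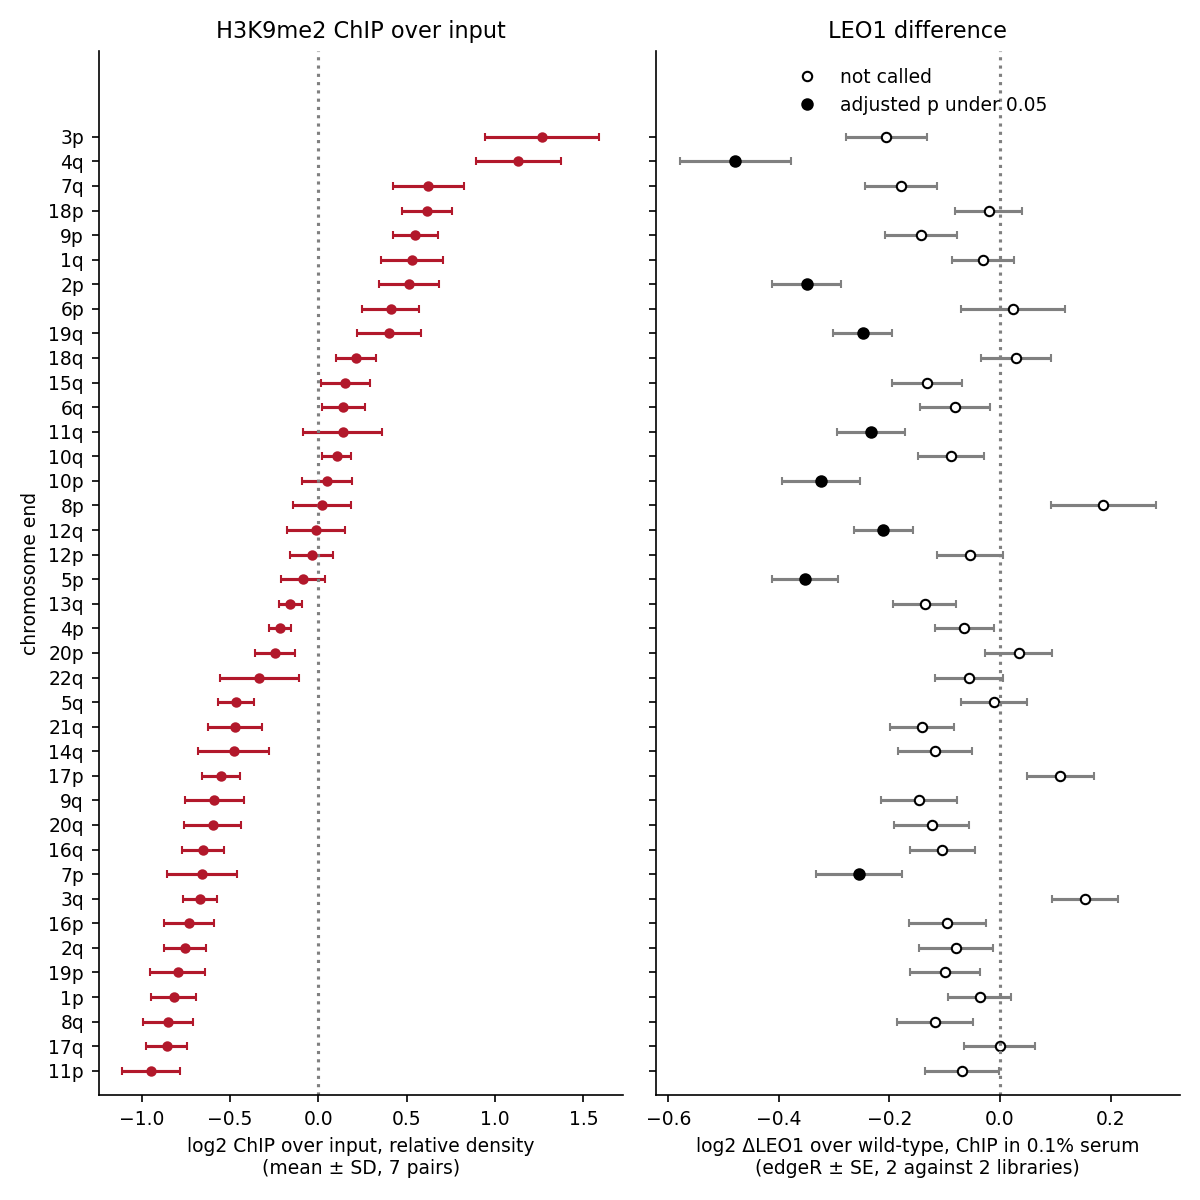
For each of the 39 chromosome ends (rows, ordered by the left panel), the left panel gives log2 ChIP over input in relative density as mean ± SD of 7 pairs. The right panel gives the log2 difference of ΔLEO1 from wild-type ChIP in 0.1% serum, with an SE derived from edgeR's F statistic. The left values run from 3p at the top to 11p at the bottom, and the 8 filled points on the right, all below 0, are the ends called at an adjusted p under 0.05.

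Summed over each end as a block and tested with edgeR's quasi-likelihood test, 34 of 39 ends differed between ChIP and input, 10 higher and 24 lower. Of all 2 Mb blocks tested, 43.0% were higher and 42.0% lower. Window by window, 11672 terminal windows passed the filter on low counts. Of these 2632 were called above input (22.5%, against 36.5% of all windows tested) and 5880 below it (50.4%, against 38.6%). The median log2 ratio was -0.48 in terminal windows and -0.033 in all windows.

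The 5 windows furthest above input lay at 3 protein-coding and 2 non-coding genes. Levels are normalised read counts (CPM, scaled by TMM factors), as mean ± SD over 7 ChIP and 8 input libraries. FAM110C, which encodes a spindle-pole-associated protein and has the outermost of these windows, from 45.5 kb at 2p, had 14.3 ± 6.58 CPM in ChIP and 3.54 ± 1.09 in input. ADCYAP1 at 18p, which encodes the neuropeptide PACAP, had 13.4 ± 4.08 and 3.23 ± 0.790. A start inside ANKMY1 at 2q (chr2:240526881-240528881), 33.2 kb downstream of the RefSeq start, had 13.5 ± 2.62 against 3.68 ± 0.762. The non-coding genes ENSG00000250509 at 5q and LINC01230 at 9p completed the top 5. All 5 had log2 ratios of 1.93 to 2.05. In each the lowest ChIP value lay above the highest input value, and the gap was smallest in FAM110C, with 6.33 to 23.5 CPM in ChIP and 2.49 to 5.76 in input.

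The windows furthest below input were promoters of widely used genes. TUBB4B, a beta-tubulin at 9q (chr9:137240287-137242287), had 2 and 1 reads in the wild-type 10% serum ChIP libraries and 0 in the other 5, against 11 to 64 reads in the inputs. ACTG1, the cytoplasmic gamma-actin at 17q, had 0 to 2 reads in ChIP and 22 to 61 in input. SHARPIN at 8q, which encodes a subunit of the linear ubiquitin ligase, SLC25A22 at 11p, a mitochondrial glutamate carrier, and the septin gene SEPTIN2 at 2q had between 0 and 3 reads in each ChIP library. Their log2 ratios ran from -3.40 to -3.00, values that depend on the prior count of 2 because ChIP held so few reads.

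Gene lists of the chromosome ends were then read with each gene taken by its window of most reads. That choice favours windows with ChIP signal, so the counts stand beside the same choice for all genes. Of 54929 autosomal genes taken in this way 60.3% were above input and 17.9% below it, with a median log2 ratio of 0.63. Of 2706 terminal genes 42.4% were above and 29.9% below, with a median of 0.16. Olfactory receptor genes, which code for odorant receptors of the nose, were above input in 60 of 65 tested and below it in 0, with a median log2 ratio of 1.09. OR4F14P at 15q had 12.4 ± 3.08 CPM in ChIP against 5.34 ± 1.06 in input, and OR11L1 at 1q had 12.2 ± 2.27 against 4.40 ± 0.472. Another 14 of the 87 listed receptor genes had no read in any library. Zinc finger genes, mostly KRAB repressors that silence retroelements, were higher in 46 of 74 and lower in 12, with a median of 0.65, close to that of all genes. They were led by ZNF132 (12.3 ± 3.80 against 6.10 ± 1.39) and ZNF835 (12.2 ± 2.36 against 3.64 ± 0.526) at 19q.

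Chromatin regulators had 6 higher and 3 lower of 11. A start inside EHMT1 at 9q (chr9:137831632-137833632) carried 14.8 ± 1.74 CPM in ChIP against 4.10 ± 0.665 in input, while HDAC10 and the KRAB co-repressor TRIM28 were lower, at log2 ratios of -2.16 and -0.96. Multicopy families of the ends (WASH, DDX11L, FAM157 and TUBB8 genes among them) had 7 higher and 2 lower of 13 tested out of 42. The telomere-linked genes were even, with DUX4, RTEL1 and TERT higher and SIRT3, ISG15 and BET1L lower. DUX4, the germline transcription factor of the D4Z4 array, had 23.8 ± 4.01 CPM in ChIP and 8.94 ± 1.40 in input. RTEL1, a helicase that guards telomeres, had 10.3 ± 2.32 and 5.75 ± 1.06, and the window at the TERT promoter 6.88 ± 3.20 and 3.52 ± 1.04.

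In the lists of cell cycle and matrix genes more members were below input than above it. Cell cycle genes had 8 lower and 2 higher of 11, with a median of -0.86. ANAPC2, a subunit of the anaphase-promoting complex, was lowest at -2.46, and CDK10 (9.55 ± 1.87 CPM in ChIP against 4.74 ± 0.875 in input) was highest at 1.07. Matrix and membrane genes had 6 lower and 4 higher of 14, with a median of -0.21. COL6A1 and COL6A2 at 21q, which encode collagen VI chains, were on the higher side at 1.49 and 0.86, and LAMA5 and COL18A1 on the lower at -1.53 and -1.69. The mucin, IFITM and KRTAP5 genes of 11p had 3 each way of 7 tested, with MUC2 at 1.60 and MUC5B at 1.11 above input and IFITM2 at -0.68 below it, and the alpha-globin cluster at 16p had 2 lower and 0 higher of 7, with HBZ at 0.076. The lists were not tested as sets.

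**Figure D4:**
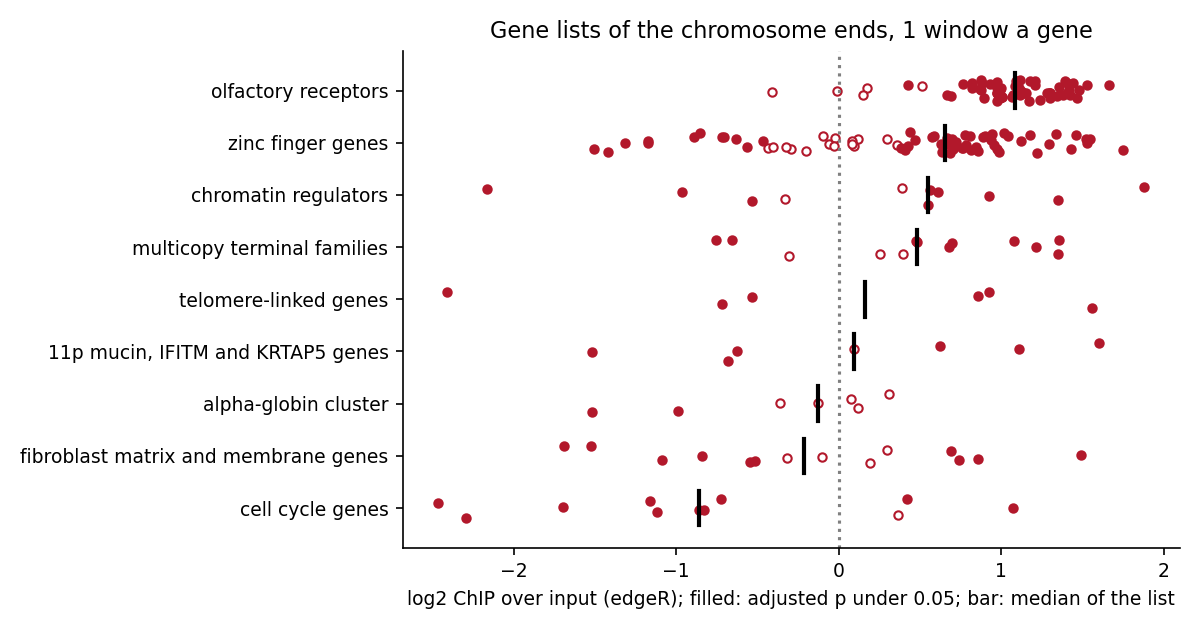
Log2 ChIP over input from edgeR (horizontal axis) for 1 window of each gene in 9 lists of terminal genes (rows), with filled points at an adjusted p under 0.05 and a bar at the median of each list. Olfactory receptors have the highest median, 1.09, and cell cycle genes the lowest, -0.86.

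The second comparison was that of ΔLEO1 with wild-type ChIP in 0.1% serum. In it, lower means lower relative to the other windows of the same library, and does not give the amount of the mark. With spike-in scaling, the study reported a global increase of the mark in quiescent ΔLEO1 cells. Spike-in scaling was not used here, so such a shift cannot be seen. Terminal windows of the ΔLEO1 libraries were lower, at 0.669 and 0.639 against 0.715 and 0.690, and the groups did not overlap. The log2 difference was -0.10, a ratio of 0.931. An exact permutation test of 2 against 2 libraries cannot go below p = 0.333, which is what it gave. Over both sera, with 3 ΔLEO1 against 4 wild-type libraries permuted within serum, the difference was -0.069 (exact permutation p = 0.111, the smallest it can give). The difference was not particular to the last 2 Mb, for windows 2 to 5 Mb from the ends differed by -0.10 as well, and against those windows the terminal difference was -0.00044. With the relative density of the same-lettered input taken off it was -0.19. From 5 to 10 Mb it was -0.045 and beyond 10 Mb 0.012.

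Of the 39 ends, 32 had a negative difference in relative density, 19 with the ΔLEO1 pair wholly below the wild-type pair and 4 with it wholly above. Tested as blocks with edgeR, 8 ends were called and all 8 were lower, against 10.0% of all 2 Mb blocks called lower. They were 4q (log2 difference -0.48 ± 0.10 SE), 5p (-0.35 ± 0.060), 2p (-0.35 ± 0.062), 10p (-0.32 ± 0.070), 7p (-0.25 ± 0.078), 19q (-0.25 ± 0.053), 11q (-0.23 ± 0.061) and 12q (-0.21 ± 0.053), with adjusted p from 0.00137 to 0.0449. At 5p, the end with TERT and AHRR, relative density was 0.667 and 0.671 in wild-type and 0.527 and 0.522 in ΔLEO1. At 4q it was 0.481 and 0.432 against 0.333 and 0.322, and at 2p 1.26 and 1.20 against 0.994 and 0.930. At these 3 ends the genotypes did not overlap. The input of ΔLEO1, averaged over both sera, was also lower at some of these ends, by log2 -0.30 at 4q, -0.18 at 5p and -0.13 at 10p. The adjusted p by edgeR was 0.110, 0.159 and 0.198. In 0.1% serum alone, the relative density of input at 4q was 0.224 and 0.225 in wild-type and 0.175 and 0.164 in ΔLEO1. At 5p it was 0.652 and 0.680 against 0.592 and 0.623, and at 10p 0.901 and 0.898 against 0.804 and 0.824. At 7p and 12q both ΔLEO1 inputs were the higher ones. The part of input in the ChIP difference was not tested. The number of ends called was 4 without wild-type 0.1% serum A, 5 without wild-type B, 8 without ΔLEO1 A and 4 without ΔLEO1 B.

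By window, 6424 terminal windows passed the filter and 52 were called between ΔLEO1 and wild-type in 0.1% serum. Of these 43 were lower (0.669%, against 0.294% of all windows tested) and 9 higher (0.140%, against 0.0909%), and the median log2 difference was -0.11 in terminal windows and -0.0025 in all. The direction of the calls depended on the scale. With library totals of the peak table as the scale, 71 of 7460 terminal windows were higher and 17 lower, as given below. The 43 lower windows formed 24 loci at 19 ends, since starts of the same gene overlap. In 37 of the 43 the usable ΔLEO1 10% serum library was also below both wild-type 10% serum libraries. Overlapping windows share reads, so these are not separate cases, and they rest on 1 library. The share among all windows was not counted.

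Of the 5 largest falls 4 lay inside genes and 1 at a gene start. SLC19A1 at 21q, the reduced folate carrier, had a start 47.3 kb inside the gene (chr21:45514768-45516768) with 12.3 and 13.4 CPM in wild-type and 5.43 and 1.35 in ΔLEO1. Its log2 difference was -1.57 ± 0.30 SE (edgeR, adjusted p = 0.00131). LINC01115 at 2p, whose promoter is printed above, had 7.16 and 8.78 CPM against 2.41 and 1.35, a difference of -1.65 ± 0.37 (adjusted p = 0.00942). A start 30.5 kb inside TERT, the catalytic subunit of telomerase (chr5:1263534-1265534), held 18 and 18 reads in wild-type and 1 and 9 in ΔLEO1, or 6.14 and 7.52 against 0.301 and 4.04 CPM. That difference was -1.54 ± 0.39 (adjusted p = 0.0304), while the window at the TERT promoter gave -0.78 (adjusted p = 0.360). Reads of the hTERT transgene, which all groups carry, were not separated from those of the native gene. CCNL2 at 1p, a cyclin of splicing factors, fell by 1.65 on the log2 scale in a window 8.44 kb inside the gene. The CCNL2 window of most reads gave 0.51 (adjusted p = 0.593). BRSK2 at 11p, a neuronal kinase, fell by 1.58.

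Among other called windows, singled out after their values were seen, was a start 199 kb inside EHMT1 (chr9:137816934-137818934), whose product writes H3K9me2. It had 12.6 and 13.0 CPM in wild-type and 4.82 and 4.93 in ΔLEO1, a difference of -1.26 ± 0.29 (edgeR, adjusted p = 0.0116). The EHMT1 window with most reads, given above, was not called (-0.23, adjusted p = 0.743). AHRR, the repressor of the aryl hydrocarbon receptor at 5p, was lower at 419.9 kb from the end (13.0 and 12.1 CPM against 4.22 and 5.38). So was ZSCAN18 at 19q, a zinc finger gene, with 11.2 and 8.78 CPM against 2.41 and 4.04. The CHL1 promoter at 3p had 13.0 and 13.0 CPM against 5.73 and 5.83. The Polycomb gene PCGF3 and TELO2, which encodes a factor for the folding of ATM-family kinases, were called too, at -1.25 and -1.29. The ΔLEO1 values were the lower ones in each of these windows, without overlap.

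The 9 higher windows were led by TPRN at 9q, a gene of the hair-cell taper. Its window (chr9:137203193-137205193), which lay outside the RefSeq gene, had 1.36 and 1.67 CPM in wild-type and 9.65 and 5.83 in ΔLEO1, a log2 difference of 1.96 ± 0.38 (edgeR, adjusted p = 0.00138). ENSG00000279672 at 11p followed at 1.60, ERC1 at 12p, a scaffold of secretion sites, at 1.58, RPL35A at 3q, a ribosomal protein, at 1.55, and the kinase PAK2 at 3q at 1.55. The ΔLEO1 levels of these windows, 5.83 to 10.6 CPM, were above the input means of 4.22 to 5.50 CPM, and the wild-type levels of 0.418 to 3.34 CPM below them. The 9 windows were separate loci at 8 ends, and the usable ΔLEO1 10% serum library was above both wild-type 10% serum libraries in 8 of them. That count too rests on 1 library, and its share among all windows was not counted.

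**Figure D5:**
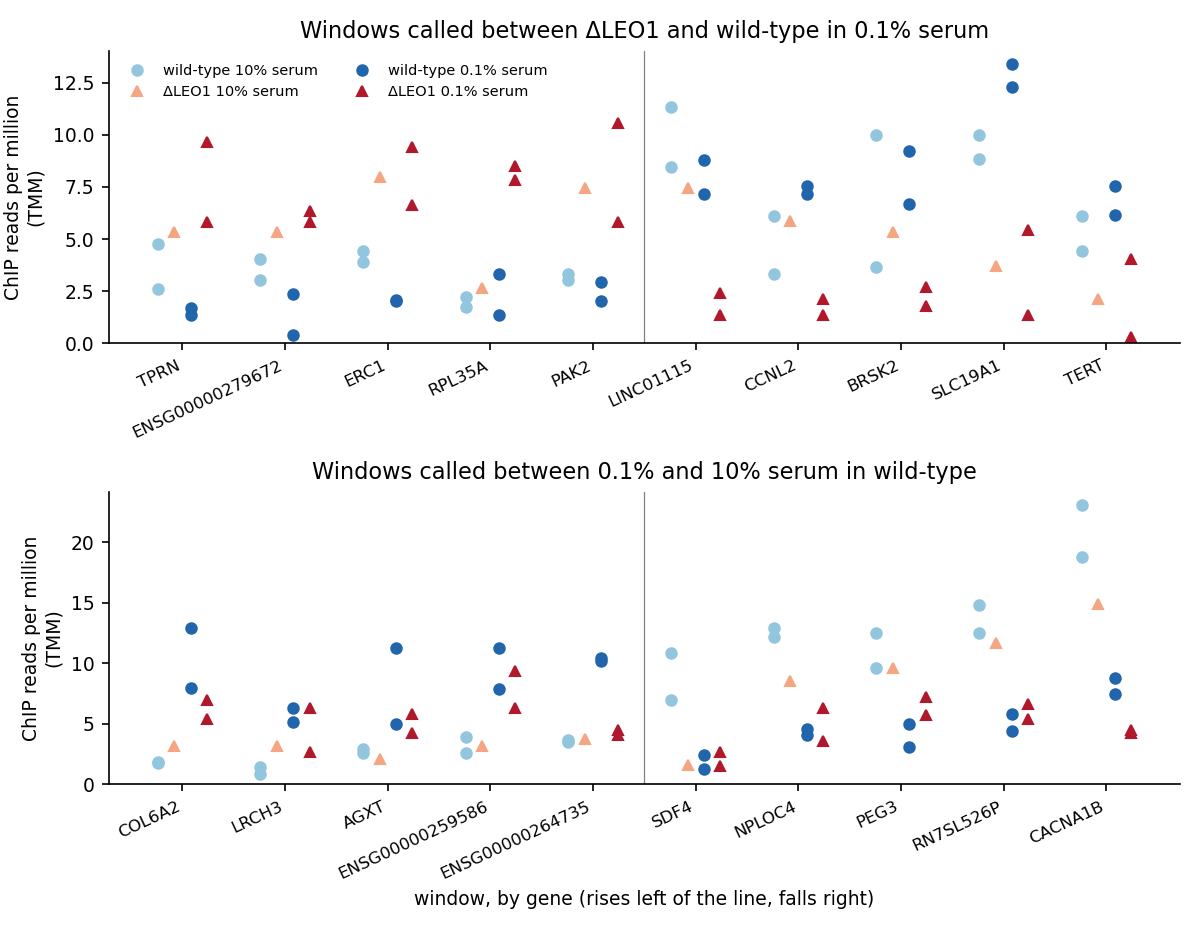
Normalised ChIP read count in CPM (vertical axis, from 0) in each library for the 5 largest rises and 5 largest falls among called terminal windows, between ΔLEO1 and wild-type in 0.1% serum (top) and between 0.1% and 10% serum in wild-type (bottom). The windows were chosen because their groups do not overlap, and in most of them the levels stay under 15 CPM.

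These calls were close to the limit of the depth. DESeq2 called 0 terminal windows and 0 of all 140885 windows tested. It had 121 terminal windows at an unadjusted p under 0.05, against 864 by edgeR. The count was 6 without wild-type A, 12 without wild-type B, 4 without ΔLEO1 A and 15 without ΔLEO1 B. When library totals of the peak table set the scale, a choice made after the data were seen, all windows shifted by a median of 0.28 and 88 of 7460 terminal windows were called, 71 higher and 17 lower, against 1.46% of all windows. The terminal median stayed below that of all windows, by 0.090. With input in the same fit 1 of 11672 terminal windows was called, against 0.0116% of all windows. It lay inside FSCN2 at 17q (chr17:81535146-81537146). FSCN2, an actin-bundling gene of the retina, held 40 and 20 ChIP reads in wild-type and 16 and 15 in ΔLEO1, while its inputs held 11 and 4 reads against 14 and 31 (log2 difference with input taken off -2.27, adjusted p = 0.0433). All 43 lower and all 9 higher windows kept the sign of their difference in that fit, and 0 of them were called. They were picked for large differences in the same ChIP libraries, so the kept signs are no separate test.

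The third comparison was that of quiescent with proliferating wild-type ChIP. Relative density was 0.715 and 0.690 in 0.1% serum and 0.747 and 0.725 in 10% serum, without overlap. The log2 difference was -0.067 (exact permutation p = 0.333, the smallest for 2 against 2 libraries). The 0.1% serum inputs were lower than the 10% serum inputs too, and with input taken off the difference turned to 0.11. As blocks, 6 of 39 ends were called by edgeR, all lower in 0.1% serum, against 7.23% of all 2 Mb blocks called lower. They were 3p (-0.32 ± 0.071 SE), 7q (-0.24 ± 0.064), 11q (-0.24 ± 0.060), 19q (-0.23 ± 0.053), 18p (-0.22 ± 0.061) and 1q (-0.19 ± 0.057). At 3p relative density went from 2.38 and 2.42 to 1.92 and 1.91. In each library of 0.1% serum the 3p value lay below both of 10% serum. The wild-type 0.1% serum libraries serve in this comparison and in that of the genotypes.

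Of the 6424 windows tested, 14 were lower in 0.1% serum (0.218%, against 0.184% of all windows) and 9 higher (0.140%, against 0.0738%). The largest rise was at COL6A2, in a window 13.3 kb inside the gene (chr21:46110450-46112450), where 1.74 and 1.84 CPM in 10% serum became 13.0 and 7.94 in 0.1% serum. Its log2 difference was 2.15 ± 0.37 (edgeR, adjusted p = 7.9e-05). LRCH3 at 3q rose by 1.69 and AGXT at 2q, the peroxisomal alanine-glyoxylate aminotransferase of liver, by 1.37 on the log2 scale. The promoter of CACNA1B at 9q, a neuronal calcium channel, had 23.1 and 18.8 CPM in 10% serum and 7.50 and 8.78 in 0.1% serum, a difference of -1.28 ± 0.24 (adjusted p = 0.000724). Its wild-type input was lower in 0.1% serum too, at 0.970 and 2.01 CPM against 3.45 and 3.54 in 10% serum, and with input taken off the difference was -0.25 (adjusted p = 0.986). SDF4 at 1p, a calcium-binding protein of the Golgi whose promoter faces that of B3GALT6, fell by 1.84. NPLOC4 at 17q, a cofactor of the p97 ATPase, fell by 1.39 in a window upstream of the gene and the imprinted zinc finger gene PEG3 at 19q by 1.34, the latter in a window 29.4 kb inside the gene with 9.57 and 12.5 CPM in 10% serum and 3.07 and 5.01 in 0.1% serum. NKX6-2 at 10q, a homeobox gene of the nervous system named after its values were seen, had a difference of -1.10 (adjusted p = 0.00659), and of -0.46 with input taken off. Of the 23 windows called for serum 22 kept their sign with input taken off, the exception being one at B3GALT6 (-1.10 and 0.024). With input taken off 0 were called, against 0.000485% of all windows. The 23 were picked on the same ChIP libraries, so the kept signs are no separate test.

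In the ΔLEO1 libraries the CACNA1B promoter had 14.9 CPM in the usable 10% serum library and 4.22 and 4.49 in 0.1% serum, and COL6A2 had 3.19 and then 6.93 and 5.38. DESeq2 called 0 terminal windows for serum and 0 of all 140885 windows tested. It had 70 terminal windows at an unadjusted p under 0.05, against 605 by edgeR. The edgeR count of 23 dropped to 3 without wild-type 10% serum A, 8 without 10% serum B, 1 without 0.1% serum A and 8 without 0.1% serum B. When peak-table totals set the scale, 17 windows were higher and 7 lower, against 0.249% of all windows called.

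Input was compared in the same way as a background. Relative density of input differed by -0.015 between ΔLEO1 and wild-type (4 against 4 libraries, exact permutation p = 0.857, pooled over sera) and by -0.074 between 0.1% and 10% serum (exact permutation p = 0.229). The genotype difference of input was -0.11 in 10% serum, where the groups overlapped, and 0.084 in 0.1% serum, where both ΔLEO1 inputs were the higher ones. In 0.1% serum it thus ran opposite to that of ChIP. Averaged over both sera, no end was called by edgeR between the genotypes in input (0 of 39, against 4.96% of all 2 Mb blocks). With edgeR 4 ends had an unadjusted p under 0.05, and DESeq2 called 0 ends, beside 73 of all 1372 blocks. Those 4 were 4q, 5p and 10p, lower in ΔLEO1, and 22q, higher by 0.18 (adjusted p = 0.320). The count was 1 without wild-type 10% serum B or ΔLEO1 10% serum B and 2 without ΔLEO1 10% serum A. By window 0 of 11717 terminal windows were called for genotype in input, against 0.0189% of all windows, with 4.78% of the terminal and 5.56% of all windows at an unadjusted p under 0.05.

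The table of merged peak regions gave a second view of the ends. Of 16025 autosomal regions, 510 (3.18%) lay in the terminal zones, with at least 1 at each of the 39 ends and 43 at 22q. Only 197 terminal TSS windows (1.47%) touched a region, against 3638 of the others (1.84%). By the deposited annotation, 7.25% of the terminal regions lay on CpG islands against 1.32% elsewhere, while LTR elements made up 10.4% against 30.6% and LINE elements 10.0% against 22.5%. Reads per terminal region, divided by reads per other region, were 1.15 and 1.10 in wild-type 0.1% serum ChIP and 1.05 and 1.01 in ΔLEO1. In 10% serum they were 1.17 and 1.15 in wild-type and 1.09 in ΔLEO1, and the inputs ran from 0.996 to 1.07. In both sera the ΔLEO1 ChIP libraries were below the wild-type ones.

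Among the terminal regions, 14 lay on telomere-type repeats or the TAR1 subtelomeric satellite, and 0 elsewhere. This class was formed after the annotations had been read and is given as a description. As a share of the reads over distinct TSS windows, its ChIP to input ratio was 6.61, against 4.18 for all terminal regions and 3.92 for the others. Peak regions may have been picked for signal in these same ChIP libraries, so ratios above 1 are no separate result. The region nearest DUX4 at 4q, on an AGGGTT repeat, held 195 and 261 reads in wild-type 10% serum ChIP, 94 in ΔLEO1 10% serum, 239 and 203 in wild-type 0.1% serum, and 130 and 78 in ΔLEO1 0.1% serum, against 33 to 97 in the inputs. The region nearest RPL23AP82 at 22q held 202 and 286, 145, 279 and 193, and 178 and 111 reads in the same order, against 44 to 100 in the inputs. On that scale ΔLEO1 differed from wild-type in 0.1% serum by a log2 of -0.81 for the 14 regions, -0.42 for all 510 and -0.29 for the regions elsewhere. Repeats of this kind occur at many ends, so the reads cannot be placed at a given chromosome.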

How the data were processed

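The authors deposited raw read counts of 16 libraries over 272902 listed TSS windows and over merged peak regions. The submitters' processing notes name bcl2fastq 2.20.0.422, STAR 2.7.10a, HOMER, hg38 and, for fly spike-in chromatin, dm6. Spike-in scaling was not used, so a shift of the mark across the whole genome cannot be seen, and how reads with several matches were treated is not given in the sources used here. Windows with repeated coordinates were counted once, by the first listing (2399 repeats held other counts). Totals over distinct windows were 1895572 to 3266061 reads in the 7 ChIP libraries used and 2844483 to 7947289 in the inputs.

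Members, gene lists and tests were chosen with earlier results of these data known. Relative density was tested by exact permutation in scipy 1.17.1. Windows, and sums over blocks of 2 Mb with at least 10 windows, were tested with edgeR 4.0.16 in R 4.3.3 (quasi-likelihood, two-sided, TMM, filterByExpr with a minimum of 10, prior count 2), 1 coefficient per group, with 7 ChIP, 8 input or all 15 libraries in a fit, and were called at a Benjamini-Hochberg adjusted p under 0.05 over everything tested. DESeq2 1.42.0 was the alternative tool. The edgeR tests between genotypes, for windows and blocks, and the permutation test of relative density were run on simulated data. The other steps were not. Named windows were the 5 largest rises and 5 largest falls among called terminal windows of each ChIP comparison whose groups did not overlap, with at least 10 reads in each library of the higher group, and the 5 highest and 5 lowest ChIP to input ratios at a mean of at least 20 input reads, 1 window a gene. In the ChIP comparisons a gene was taken by its called window of smallest p, which need not have its largest change. Values after ± are an SD over libraries or over pairs of ChIP and input, or an SE where so marked. Each SE was derived as the absolute log2 difference divided by the square root of edgeR's F statistic.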

Additional observations from a re-analysis of the deposited data

How the results depend on the processing

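The ChIP deficit of terminal windows kept its direction and passed the test with a zone of 1 or 3 Mb, separate windows, every listed window, 2 to 5 Mb as reference, the top 1% of windows left out and each library left out (-0.32 to -0.29 on the log2 scale). Paired with input by genotype, serum and letter, as a replicate block, it was -0.32 (exact permutation p = 0.0156). Weighted to crowding, it was -0.027 and no longer passed, and the cause was not tested. The genotype difference of input changed sign against windows 2 to 5 Mb from the ends (0.0098) and ran from -0.049 to 0.029 with each library left out, above 0 without ΔLEO1 10% serum A (0.013) or wild-type 10% serum B (0.029). The serum difference of ChIP turned to 0.11 with input taken off, and ran from -0.093 to -0.042 with each library left out. The LEO1 difference ran from -0.14 to -0.070 and the serum difference of input from -0.12 to -0.039.

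The 52 windows called for LEO1 became 1 with input in the fit, 0 with the ChIP library of 50 reads included (363 at an unadjusted p under 0.05), 0 with DESeq2, 88 with peak-table totals and 4 to 15 with each library left out. The 23 windows for serum became 0 with input in the fit (828 at an unadjusted p under 0.05), 0 with the library of 50 reads (232), 0 with DESeq2, 11 within 1 Mb of the end, where fewer windows are tested, and 1 to 8 with each library left out. With a library left out, fewer of all windows were called for LEO1 and for serum as well. The 8512 of 11672 terminal windows called against input became 4544 of 6261 within 1 Mb, a similar share of fewer windows tested. The 8 ends called for LEO1 became 13 with separate windows, where 285 of all 1356 blocks were called, against 160 of 1370 in the main fit. With each library of the compared groups left out, the median log2 difference of the ends ran from -0.15 to -0.044, and fewer of all blocks were called. The 0 ends called between input genotypes became 3 with separate windows, beside 85 of all 1357 blocks, against 68 of 1372 in the main fit. With each input left out, their median difference ran from -0.067 to 0.022. Same-letter deviations correlated at 0.0054 and 0.0051 across windows between ChIP groups. At so few reads a window, this cannot show whether the letters mark a shared batch. In relative density A lay above B in each ChIP group with 2 usable libraries, and below B in each input group. With the letter as a replicate block the counts were 54 windows for LEO1 (599 of all 140885) and 28 for serum (398 of 140885). For ends they were 9 for LEO1 (226 of all 1370 blocks) and 2 for input (82 of 1372). At a median of 5 to 8 ChIP reads a window, single windows are near the limit of detection, and sums over an end are better determined. The weighting by crowding, the peak-table totals and the difference over both sera were chosen after seeing the data.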
